A study of Mus musculus with 6 samples.

Results

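The 9 genes Ifit1, Ifit3, Oasl2, Bst2, Ifitm3, Isg15, Usp18, Irf7 and Irf9 are type I interferon response genes. They were chosen by symbol as commonly measured interferon-stimulated genes, and all 9 were found among the 24054 genes of the count table. They were measured by RNA sequencing in 3 MitoPark mice and 3 littermate controls, aged 16 to 17 weeks by the labels. The tissue is brain by the labels, and the substantia nigra (SN) by the methods of the study. MitoPark mice are Dat+/Cre: TFAM LoxP/LoxP, so that Tfam, the gene of mitochondrial transcription factor A, is deleted in cells that use the dopamine transporter (Dat) promoter, and they have Cre at 1 of their Dat alleles. The controls are TFAM+/LoxP: Dat+/+, so they too carry 1 floxed Tfam allele, but no Cre, and by the study's methods some may come from parental strain litters. The labels give only C57BL/6 for the controls and transgenic mice from C57BL/6 for the MitoParks, and no mouse was treated. The deletion is thus driven in dopaminergic neurons, while the dissected SN also holds glia, vessels and other neurons, so each value is a mixture over cell types.

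Type I interferons are secreted proteins that bind the receptor Ifnar1/Ifnar2 on the same or neighbouring cells. The receptor's kinases then activate signal transducers, Stat2 among them, and the complex ISGF3 forms with Irf9. ISGF3 binds the interferon-stimulated response element (ISRE) in promoters and turns on antiviral effectors such as the Ifit proteins, and also Irf7, which amplifies interferon production. Cells make interferon after nucleic acids in the wrong compartment are sensed, among them mitochondrial DNA in the cytosol, which cGAS and STING detect. Whether these genes differ in the SN of MitoParks is the question addressed here. In brain, microglia, endothelial cells and astrocytes are known to express them, at low levels in the absence of infection.

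To show what the 9 genes share in sequence, the 300 bases around each gene start (250 before and 50 after) in the RefSeq promoter table, build GRCm38.p6, were searched on both strands for the core of the ISRE, GAAANNGAAA. The table held a promoter for 8 of the 9 genes, and not for Usp18. A match was found for 5 of these 8 genes, or 62.5%. Matches were present for 29 of 64 other interferon-stimulated genes (45.3%) and for 1079 of all 27025 genes in the table (3.99%). A match is a description of letters and not of a bound site, and matches within a gene can overlap each other. Oasl2, Irf7 and Irf9 had no match in this window. The stretches with matches are shown because this element is the best known feature of interferon-stimulated promoters, and because the matches differ between genes in number, strand and distance from the start. They are written 5′ to 3′ along the gene's strand with the matched bases in capitals, and where the motif lies on the opposite strand it reads TTTCNNTTTC. The Ifit1 stretch is at chr19:34640765-34640833 (plus strand) and begins its first match 104 bases before the gene start. The Ifit3 stretch is at chr19:34583353-34583436 (plus strand), the first match 156 bases before the start. The Bst2 stretch is at chr8:71537567-71537622 (minus strand), with the first match 130 bases before the start, and the Isg15 stretch is at chr4:156200855-156200916 (minus strand), with 3 overlapping matches from 78 bases before the start. For Ifitm3 the matches begin at base 3 of the transcript, at chr7:141010716-141010742 (minus strand), and are shown without the flanking bases.
Ifit1: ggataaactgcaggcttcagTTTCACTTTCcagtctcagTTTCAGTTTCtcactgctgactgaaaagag
Ifit3: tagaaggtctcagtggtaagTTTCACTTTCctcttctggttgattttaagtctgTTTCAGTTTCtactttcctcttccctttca
Bst2: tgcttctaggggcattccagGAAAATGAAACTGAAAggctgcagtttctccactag
Isg15: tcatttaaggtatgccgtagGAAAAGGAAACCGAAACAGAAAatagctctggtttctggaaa
Ifitm3: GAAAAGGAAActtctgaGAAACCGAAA

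None of the 9 genes differed between MitoParks and littermate controls past the cutoffs used here. These were the study's edgeR cutoffs, a fold change above 1.5 together with a p below 0.05, with p taken as unadjusted. A second methods section of the study instead names an adjusted p below 0.05. By edgeR's quasi-likelihood test on every gene whose mean CPM exceeded 1 in either group, 0 of the 9 genes also had an unadjusted p below 0.05. DESeq2 and limma-voom likewise gave 0 on both counts. CPM are a gene's counts relative to the size of its library, scaled by the TMM method. Among all 14568 genes tested, 84 passed the cutoffs, a background of 0.577%, and 161 (1.11%) had an unadjusted p below 0.05, so that 0 of 9 genes is near the background. Every adjusted p of the 9 genes was 0.999 (edgeR, Benjamini-Hochberg over all genes tested). The fitted log2 fold change was above 0 for 7 of the 9 genes, with a median of 0.15, a fold of 1.11, beside a median of -0.005 over all genes tested, of which 48.6% were above 0. With 1 mouse left out that median was 0.07 without MitoPark 3 or littermate control 2, 0.21 without littermate control 1, 0.31 without littermate control 3 or MitoPark 2, and 0.40 without MitoPark 1.

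The same mouse had the highest level of all 9 genes. MitoPark 3 was above the 5 other mice for each of them, whereas it was the highest mouse for 20.7% of all genes tested. This lean was not particular to the 9 genes. MitoPark 3 was also highest for 35 of 63 other interferon-stimulated genes tested and 18 of 30 genes of nucleic acid sensing. Among markers tested, it was highest for 6 of 7 of blood and leukocytes and 8 of 18 of microglia. The share was 3 of 14 for interferon receptors and signalling, 4 of 11 for astrocyte markers and 0 of 12 for dopaminergic neuron markers. The lowest mouse was littermate control 2 for 4 genes, MitoPark 1 for 3 and littermate control 3 for 2. Summed over the 9 genes, the level was 49.5, 40.6 and 52.9 CPM in control mice 1 to 3, against 45.4, 50.1 and 65.0 CPM in MitoParks 1 to 3. MitoParks 1 and 2 thus lay within the range of the controls, and MitoPark 3 alone lay above it.

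**Figure D1:**
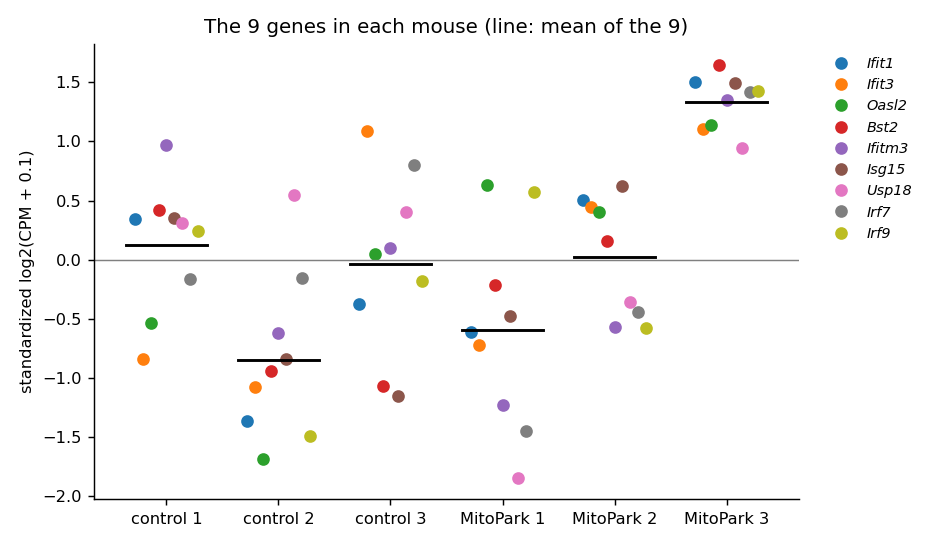
Each point is 1 gene in 1 mouse, as log2(CPM + 0.1) centred on the gene's mean over the 6 mice and divided by its SD, and the black line is the mean over the 9 genes. MitoPark 3 stands at a mean of 1.34, while the other 5 mice lie between -0.85 and 0.12, controls and MitoParks intermixed.

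The levels are given by role, with the mice of each group always in the order 1, 2, 3. Ifit1 and Ifit3 encode proteins with tetratricopeptide repeats that block the translation of viral RNA. Ifit1 was at 4.78, 3.32 and 4.1 CPM in the 3 control mice, against 3.9, 4.95 and 6.12 CPM in the 3 MitoParks. MitoParks 2 and 3 were above all controls, and MitoPark 1 was inside the control range. The group means of Ifit1 were 4.07 ± 0.732 and 4.99 ± 1.11 CPM (SD, n = 3 each), with 32 to 54 counts per mouse. Its fold change was 1.23, with a 95% interval from 0.821 to 1.84 (log2 fold change 0.30, standard error 0.26, unadjusted p = 0.278 by edgeR's quasi-likelihood test).

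Ifit3 had the most counts of the 9 genes, 123 to 207 per mouse. It was at 14.7, 14.1 and 20.2 CPM in the 3 control mice, against 14.98, 18.2 and 20.3 CPM in the 3 MitoParks. Littermate control 3 and MitoPark 3 were almost level, and the groups overlapped over nearly their whole range. The fold change of Ifit3 was 1.09, with a 95% interval from 0.822 to 1.45 (log2 fold change 0.12, standard error 0.18, unadjusted p = 0.509, edgeR). Its expected counts were not whole numbers in any of the 6 mice, which is how RSEM writes reads shared with other transcripts. The near-identical gene Ifit3b, like Ifit1bl1 and Ifit1bl2, was not found by symbol in the count table, so the split of reads between them is uncertain.

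Oasl2, an oligoadenylate synthetase-like protein, was the only one of the 9 genes whose groups did not overlap. The 3 control mice were at 4.56, 3.42 and 5.27 CPM, against 6.09, 5.76 and 6.91 CPM in the 3 MitoParks. Every MitoPark lay above every control, the nearest pair being MitoPark 2 and littermate control 3. Groups that do not overlap were seen for 4.71% of all genes tested in either direction, so 1 gene of 9 is no result about the 9 as a group. The means of Oasl2 were 4.42 ± 0.937 and 6.25 ± 0.593 CPM (SD, n = 3 each). The fold change was 1.42, with a 95% interval from 0.983 to 2.04 (log2 fold change 0.50, standard error 0.23, unadjusted p = 0.0593, edgeR), and an exact two-sided permutation test gave p = 0.1, the smallest that 3 against 3 mice allow. Without littermate control 3 the log2 fold change was 0.65 and Oasl2 passed both cutoffs (unadjusted p = 0.0357, edgeR), while without littermate control 2 it was 0.34 (unadjusted p = 0.194, edgeR). The related Oasl1 had 1 to 3 counts per mouse and was not tested.

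Bst2, or tetherin, holds budding viruses at the cell surface, and Ifitm3 hinders the fusion of viruses with endosomal membranes. Bst2 was at 2.34, 1.8 and 1.76 CPM in the 3 control mice, against 2.07, 2.22 and 2.95 CPM in the 3 MitoParks. Only MitoPark 3 was above all controls. The fold change of Bst2 was 1.23, with a 95% interval from 0.764 to 1.98 (log2 fold change 0.30, standard error 0.31, unadjusted p = 0.352, edgeR), on 17 to 26 counts per mouse.

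Ifitm3 was at 7.01, 4.17 and 5.27 CPM in the 3 control mice, against 3.41, 4.24 and 7.93 CPM in the 3 MitoParks. The MitoParks held both the lowest and the highest mouse, and they spanned the range of the controls. Its means were 5.49 ± 1.43 and 5.19 ± 2.4 CPM (SD, n = 3 each), and the log2 fold change was -0.07, with a fold interval from 0.56 to 1.61 (unadjusted p = 0.834, edgeR). That sign turned when MitoPark 1, MitoPark 2 or littermate control 1 was left out, to 0.16, 0.06 and 0.15. The neighbouring family members Ifitm1 and Ifitm2 had log2 fold changes of 0.57 (unadjusted p = 0.207) and -0.03 (unadjusted p = 0.927, edgeR). Ifitm2 followed the same order of MitoParks, at 3.04, 3.43 and 6.46 CPM in MitoParks 1, 2 and 3, and reads of this family may be shared, since the Ifitm3 values were not whole in 2 mice.

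Isg15 encodes a ubiquitin-like protein that is attached to other proteins, and Usp18 is the protease that removes it and also restrains the receptor. Isg15 was at 1.11, 0.759 and 0.683 CPM in the 3 control mice, against 0.852, 1.21 and 1.59 CPM in the 3 MitoParks. Its counts were low, 10, 8 and 7 in the controls and 7, 12 and 14 in the MitoParks, and MitoPark 1 was inside the control range. Isg15 had the largest fitted fold change of the 9 genes, 1.44, but with an interval from 0.74 to 2.8 (log2 fold change 0.53, standard error 0.43, unadjusted p = 0.248, edgeR). It was also the only one of the 9 that passed the filter on low values through the MitoPark mean alone, so it could enter the test only by being higher there.

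Usp18 went the other way in its mean, without passing the test. It was at 1.33, 1.42 and 1.37 CPM in the 3 control mice, against 0.731, 1.11 and 1.59 CPM in the 3 MitoParks. The controls were nearly level, and 2 MitoParks lay below them and 1 above. The log2 fold change was -0.26 (standard error 0.39, unadjusted p = 0.521, edgeR), and the fold interval ran from 0.455 to 1.53 on 6 to 15 counts per mouse.

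Irf9 is the DNA-binding part of ISGF3, and Irf7 the factor that drives further interferon transcription. Irf9 varied least around its fitted change, with a standard error of 0.16. It was at 12.5, 10.3 and 11.9 CPM in the 3 control mice, against 12.9, 11.4 and 14.2 CPM in the 3 MitoParks. The fold change of Irf9 was 1.11, with a 95% interval from 0.864 to 1.42 (log2 fold change 0.15, unadjusted p = 0.376, edgeR), on 106 to 125 counts per mouse.

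Irf7 varied most. It was at 1.22, 1.23 and 2.34 CPM in the 3 control mice, against 0.487, 1.01 and 3.51 CPM in the 3 MitoParks. The lowest and the highest of the 6 mice were both MitoParks, with 4 and 31 counts. The log2 fold change of Irf7 was 0.06 (standard error 0.63, unadjusted p = 0.93, edgeR), with a fold interval from 0.391 to 2.77. Without MitoPark 3 it was -1.06 (unadjusted p = 0.0869, edgeR), without littermate controls 1 and 2 in turn it was -0.09 and -0.10, and limma-voom gave -0.30, so the data do not settle its direction.

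**Figure D2:**
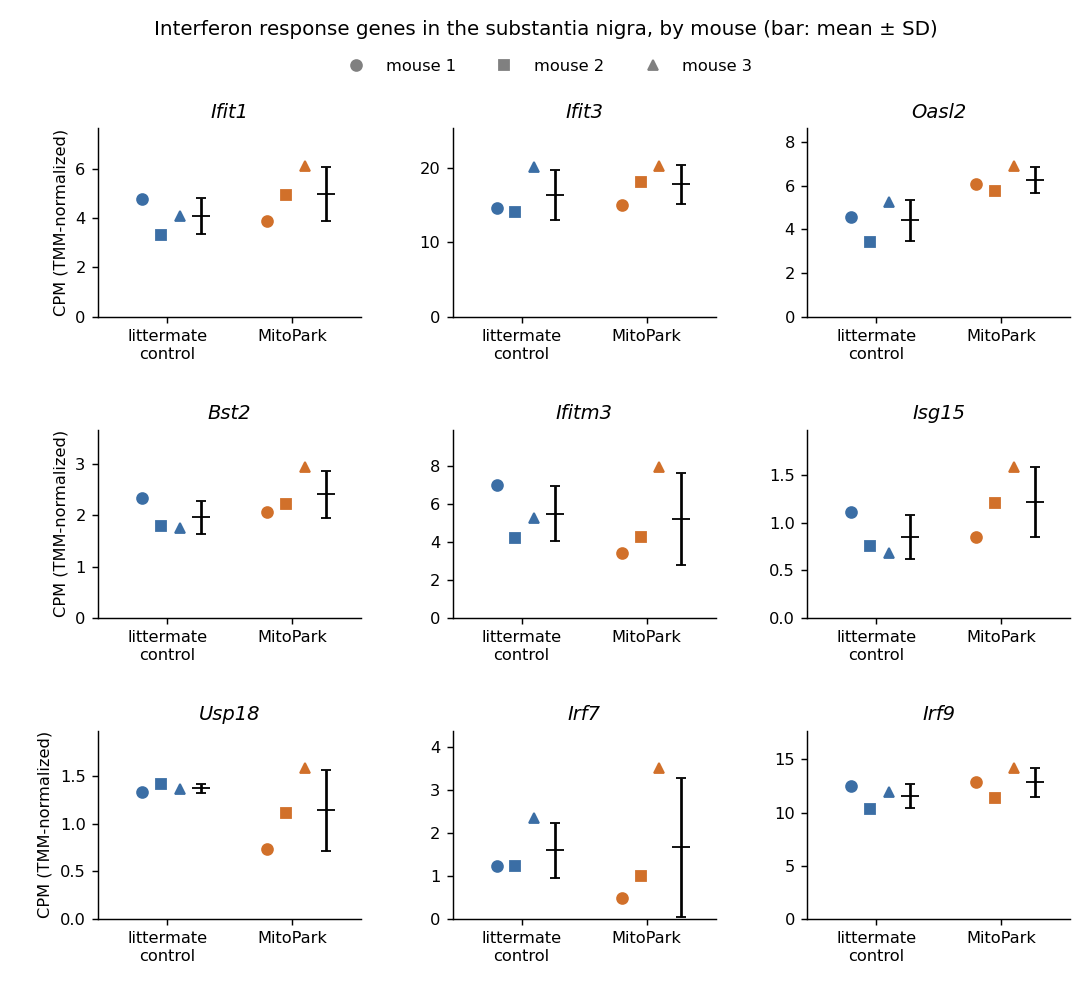
TMM-normalized CPM of the 9 genes, 1 panel a gene with its own axis from 0, with 1 point a mouse and the black bar at the mean ± SD of 3 mice. The triangle of MitoPark 3 is the highest point in every panel, and only the Oasl2 panel has groups that do not overlap.

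The intervals show which fold changes these data leave possible at this depth, which was between 8140777 and 10528602 expected counts per mouse. The upper bound of the fold change was below 1.5 for 2 of the 9 genes, Ifit3 and Irf9, and below 2 for 6 of them. For Isg15, Irf7 and Oasl2 the interval reached a fold of 2 or more. Toward lower levels it reached 0.455 for Usp18 and 0.391 for Irf7. For these 4 genes a change of that size in that direction is not excluded by the interval, with 3 mice a group.

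**Figure D3:**
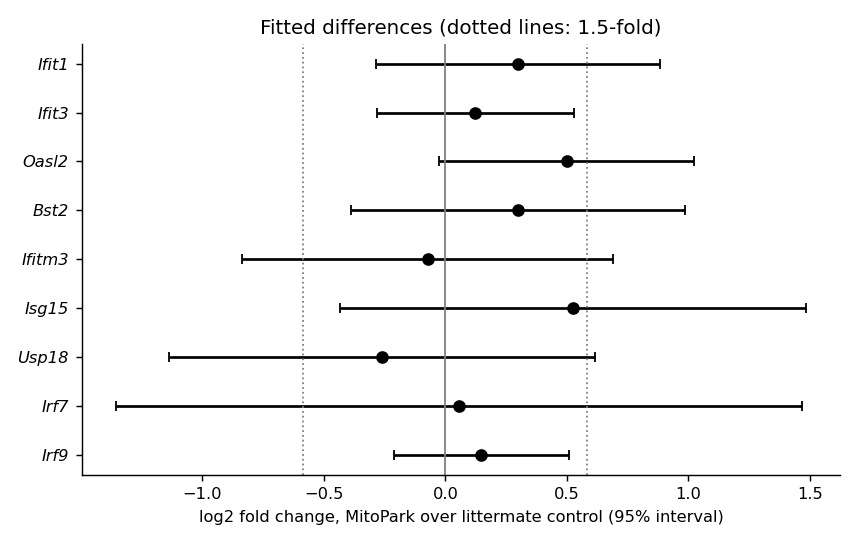
Fitted log2 fold change of each gene, MitoPark over littermate control, with its 95% interval from edgeR's quasi-likelihood fit, and dotted lines at a fold of 1.5 in each direction. Every interval includes 0, and the intervals of Isg15, Usp18 and Irf7, the genes with the fewest counts, are the widest.

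Levels between genes were compared per length, as CPM per kilobase of the longest GENCODE M21 transcript, over the 6 mice. Ifit3 was highest, at 9.79 ± 1.62 CPM per kilobase (SD, n = 6), followed by Ifitm3 at 7.88 ± 2.62. Irf9 at 3.15 ± 0.338 and Bst2 at 2.76 ± 0.549 came next, then Oasl2 at 1.71 ± 0.392, Ifit1 at 1.71 ± 0.369 and Isg15 at 1.37 ± 0.448. Usp18 at 0.711 ± 0.17 and Irf7 at 0.505 ± 0.34 were lowest. The ranges over mice of Ifitm3 and Irf9, of Bst2 and Oasl2, and of Isg15 and Usp18 were apart, whereas the other neighbours in this order overlapped. The transcripts the authors counted are not known by length, so the order is approximate.

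The rest of the pathway was read from lists of genes. Of 21 interferon genes, 16 had no count in any mouse, Ifnb1 among them, and the other 5 had 9 counts in all, with at most 3 in 1 mouse. None was tested. A count of 0 allows a level of up to 3 counts, between 0.285 and 0.369 CPM in these mice, so the few counts that were seen, in both groups, are too few to compare.

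The receptor and its signalling genes were expressed at levels well above the interferon response genes. Of 14 such genes 9 were higher and 5 lower in MitoParks by their fitted value, with a median log2 fold change of 0.03, and 0 passed the cutoffs (edgeR, 0 with an unadjusted p below 0.05). The receptor chains Ifnar1 and Ifnar2 were at 59.3 ± 5.23 and 19.0 ± 0.25 CPM in controls and at 62.7 ± 11.1 and 17.4 ± 2.47 CPM in MitoParks (SD, n = 3 each). Stat2 was at 23.2 ± 2.28 CPM in controls and 25.7 ± 4.44 CPM in MitoParks (SD, n = 3 each), a log2 fold change of 0.14 (unadjusted p = 0.37, edgeR). The 3 genes of this list with the highest CPM were the phosphatase Ptpn11, the kinase Jak1 and Pias1, an inhibitor of this signalling, with log2 fold changes of 0.02, -0.08 and -0.13.

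Of 30 tested genes of nucleic acid sensing, 21 were higher and 9 lower by their fitted value, with a median log2 fold change of 0.10, and 0 passed the cutoffs (edgeR, 0 with an unadjusted p below 0.05). The DNA sensor cGAS, listed as Mb21d1, was at 2.11, 0.854 and 1.56 CPM in the 3 control mice, against 1.46, 1.31 and 2.15 CPM in the 3 MitoParks. Its adaptor STING, listed as Tmem173, was at 3.12, 1.9 and 4.2 CPM and then at 2.8, 2.73 and 3.85 CPM in the same order. Neither sensor stood apart between the groups, and their log2 fold changes were 0.13 and 0.03 (unadjusted p = 0.76 and 0.939, edgeR). Irf3, the factor that STING activates through the kinase Tbk1, was at 17.3 ± 0.881 and 18.7 ± 1.47 CPM (SD, n = 3 each), with a log2 fold change of 0.11. Tbk1, Samhd1, which degrades deoxynucleotides, and Irf2, the 3 of the list with the highest CPM, had log2 fold changes of -0.09, 0.05 and -0.06.

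A wider list of 80 other interferon-stimulated genes had 63 that passed the filter, of which 47 were higher and 16 lower in MitoParks by their fitted value. Their median log2 fold change was 0.21, a fold of 1.16. Without MitoPark 3, 39 of 61 tested were higher. In 10 of the 63 all MitoParks lay on 1 side of all controls, above them in 8, beside 4.71% of all genes tested. Of the 63 genes, 6 had passed the filter through the MitoPark mean alone, and all 6 were higher, whereas 0 had passed through the control mean alone. Among the 60 genes with a mean CPM above 1 over all 6 mice, 44 were higher, with a median log2 fold change of 0.21.

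Only Ddx60 and Ifi27l2a passed the cutoffs in this list, 2 of the 63 tested, beside 0.577% of all genes tested. Both were higher in MitoParks, and both were among the 6 genes that entered through the MitoPark mean. An unadjusted p below 0.05 was found for 3 of the 63 (edgeR), beside 1.11% of all genes tested. Ddx60, a helicase-like antiviral protein, was at 1.22, 0.854 and 0.781 CPM in the 3 control mice, against 1.7, 1.72 and 2.83 CPM in the 3 MitoParks. All 3 MitoParks were above all controls, on 8 to 25 counts per mouse. The log2 fold change of Ddx60 was 1.13 (standard error 0.39, unadjusted p = 0.0164, adjusted p = 0.999, edgeR with Benjamini-Hochberg adjustment). It missed the p cutoff without littermate control 2 (1.06, unadjusted p = 0.0505), without littermate control 3 (1.01, unadjusted p = 0.0533) and without MitoPark 3 (0.85, unadjusted p = 0.0740), each by edgeR's quasi-likelihood test.

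Ifi27l2a gave 4, 5 and 4 counts in the 3 control mice, against 11, 9 and 7 in the 3 MitoParks. The groups were apart, and here MitoPark 1 was the highest mouse. The log2 fold change of Ifi27l2a was 1.18 (standard error 0.47, unadjusted p = 0.0332, adjusted p = 0.999, edgeR with Benjamini-Hochberg adjustment). It missed the p cutoff without each control in turn (unadjusted p = 0.0611, 0.0623 and 0.0967, edgeR), under DESeq2 (unadjusted p = 0.125) and with the replicate block (unadjusted p = 0.0536, edgeR). The 3 genes with the highest CPM in the list, the RNA-editing enzyme Adar, the class I light chain B2m and Znfx1, had log2 fold changes of 0.02, 0.28 and -0.20, with 0 of them past the cutoffs.

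**Figure D4:**
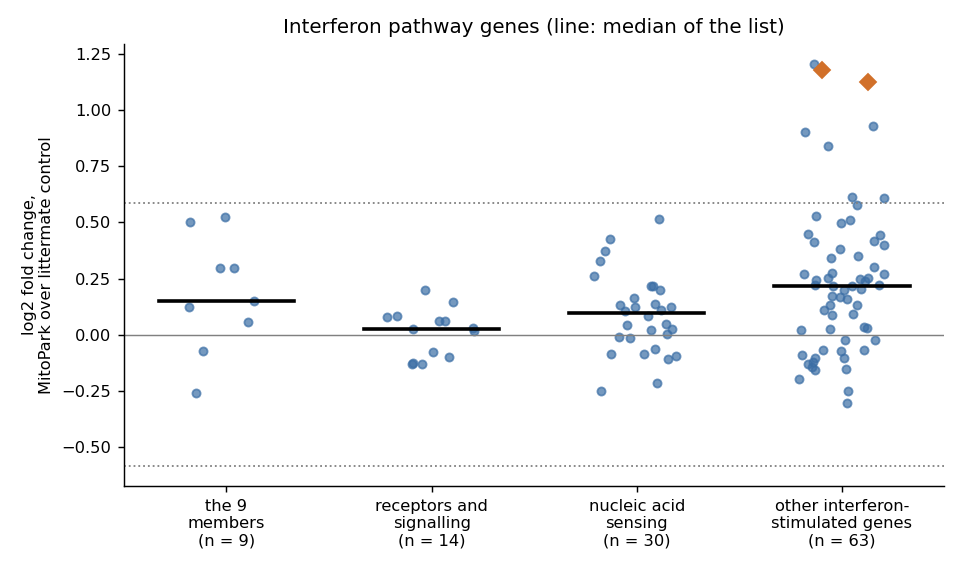
Fitted log2 fold change of each tested gene, 1 point a gene, in the 9 members and 3 further lists, with black lines at the list medians of 0.15, 0.03, 0.10 and 0.21 and dotted lines at a fold of 1.5 in each direction. Points lie on both sides of 0 in each list, and the only 2 past the cutoffs, the diamonds, are Ifi27l2a and Ddx60.

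Genes whose pattern over the 6 mice was most like that of the 9 genes were ranked by Pearson's r between log2(CPM + 0.1) and the mean standardized level of the 9 genes, among 12018 genes with a mean CPM above 5. The 5 closest were Mtf1 (r = 0.995, Spearman's rho = 0.771), Pdzd2 (0.989, 0.943), Marveld1 (0.987, 0.829), Gpatch8 (0.986, 0.943) and Lmo2 (0.985, 0.943). These values describe 6 mice that share their libraries with the 9 genes, and they are the extremes of 12018 genes. Without MitoPark 3 and littermate control 2, the mice farthest from the median, r was between 0.903 and 0.986. Mtf1 was highest in MitoPark 3, at 52.3 CPM, and lay between 40.2 and 44.8 CPM in the other mice. Of the 100 closest genes 1, Tapbp, was among the 30 other interferon-stimulated genes compared, whose median r was 0.41, beside -0.08 over all genes compared.

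The mice also differed in other measured genes. Tfam, the deleted gene, was at 40.3, 44.3 and 45.4 CPM in the 3 control mice, against 32.6, 33.0 and 33.2 CPM in the 3 MitoParks. All 12 dopaminergic neuron markers were counted in every control mouse, and their summed level was 541, 646 and 1678 CPM there, against 351, 670 and 646 CPM in MitoParks, with Pitx3 at 0 in MitoPark 1. By this sum littermate control 3, the mouse without which Oasl2 passed the cutoffs, stood apart, and the other controls lay within the range of the MitoParks. By their fitted values all 12 were lower in MitoParks, with a median log2 fold change of -0.65, and 2 passed the cutoffs. These were Foxa1 (-0.84, unadjusted p = 0.0488, edgeR) and Slc6a3, the gene of Dat (-2.30, unadjusted p = 0.00895, edgeR). Slc6a3 was at 72.5, 65.2 and 383 CPM in controls and 13.3, 51.0 and 40.9 CPM in MitoParks. MitoParks have Cre at 1 of their Dat alleles and controls do not, so the part of that allele in the Slc6a3 values cannot be told apart. Of 18 microglia markers, 16 were higher in MitoParks by their fitted value, with a median log2 fold change of 0.20. Groups did not overlap for 5 of the 18, all higher in MitoParks, beside 4.71% of all genes tested. An unadjusted p below 0.05 was found for 3 of the 18 (edgeR), beside 1.11% of all genes tested. Of these, C1qa and Cd68 were higher but short of the fold cutoff (log2 fold changes 0.34 and 0.58, unadjusted p = 0.031 and 0.0367, edgeR). The only marker past both cutoffs, Fcrls, was lower (log2 fold change -1.18, unadjusted p = 0.0438, edgeR). Fcrls was at 2.0, 10.9 and 7.42 CPM in controls and 2.31, 2.83 and 3.85 CPM in MitoParks. The summed level of the 18 microglia markers was between 432 and 586 CPM in controls and between 555 and 613 CPM in MitoParks, highest in MitoPark 3. The blood and leukocyte markers summed to between 121 and 226 CPM in controls and between 185 and 256 CPM in MitoParks, again highest in MitoPark 3. Hba-a1 alone was at 81.7 to 170 CPM and 142 to 193 CPM. Of 7 tested, 6 were higher by their fitted value, with a median log2 fold change of 0.25 and 0 past the cutoffs. Ptprc and Lyz2 gave 28 to 51 and 43 to 81 counts per mouse (log2 fold changes 0.25 and 0.36, unadjusted p = 0.363 and 0.251, edgeR). Cd3e, Nkg7 and S100a8, which mark T cells, natural killer cells and neutrophils, were at 0 to 6 counts per mouse. Endothelial and pericyte markers summed to 961 to 1158 CPM in controls and 954 to 1116 CPM in MitoParks, and leptomeningeal markers to 170 to 218 CPM and 177 to 235 CPM. Astrocyte markers summed to 4838 to 5602 CPM and 5089 to 5758 CPM, oligodendrocyte markers to 7028 to 18490 CPM, highest in littermate control 3, and 9618 to 15700 CPM, and choroid plexus markers to 28.4 to 189 CPM and 39.6 to 64.0 CPM. MitoPark 3 was not the highest mouse for these 5 lists. Xist was above 800 CPM in 4 mice and at about 2 CPM in littermate control 1 and MitoPark 2, which alone expressed the Y-linked gene Ddx3y, so each group held 1 male-like and 2 female-like libraries. The part of these differences in the levels of the interferon response genes was not tested, and in bulk RNA fewer cells of a type and less RNA per cell cannot be told apart.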

How the data were processed

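Polyadenylated RNA was sequenced from the SN of 6 mice. For each gene the authors deposited RSEM 1.2.15 expected counts, not normalized, from Bowtie2 2.1.0 alignments to UCSC transcripts. No mouse build is named for this alignment (the submitters' processing notes name hg38, a human build), so the only coordinates given are those of the RefSeq promoter table. In each mouse 11.9% to 14.1% of them were not whole numbers. The columns named Treat were taken as the MitoParks, since they are the only ones besides the controls. The table has 0 columns of other samples.

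Expected counts were rounded, genes were kept where either group had a mean CPM above 1, and edgeR 4.0.16 (R 4.3.3) with TMM fitted a quasi-likelihood model of group on all 14568 genes. Each standard error is the log2 fold change divided by the square root of the F statistic, with intervals at 95%. Exact permutation tests (scipy 1.17.1) used log2(CPM + 0.1). The procedure was tested on simulated data. The least chi-square per degree of freedom between mice of 1 group was 9.68, so each mouse was counted as 1 replicate. Intervals rest on counts of reads without molecular identifiers. The alternatives were DESeq2 1.42.0, limma-voom (limma 3.58.1), 3 other normalizations, 2 other filters, robust dispersion, a replicate block, and leaving out each mouse.

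The 9 genes and all lists were chosen with earlier results of these data known. Named are the 9 genes, their relatives, list genes past the cutoffs, the 3 with the highest mean CPM per list, the receptor, Stat2, cGAS, STING and Irf3 genes, and the 5 most alike. Some genes of the lists are not reported here by name.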

Additional observations from a re-analysis of the deposited data

How the results depend on the processing

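No alternative with all 6 mice called any of the 9 genes, and with each mouse left out the number called was between 0 and 1, the 1 being Oasl2 without littermate control 3. At a mean CPM above 5, 5 of the 9 genes were tested and 4 of these were higher, and 0 of the other interferon-stimulated genes were called. With each mouse left out, between 1 and 4 of those genes were called, with 1 without littermate control 2 or MitoPark 3 and 4 without MitoPark 2. The number of all genes called, 84, became 176 without a filter, 31 at a mean CPM above 5, and between 62 and 219 with each mouse left out, with 133 without littermate control 1, 219 without littermate control 3 and 217 without MitoPark 2. Changes of sign among the 9 genes were limited to Irf7 and Ifitm3. The log2 fold change of Irf7 was -0.30 under limma-voom, -0.087 with the replicate block, and between -1.06 and 0.48 with each mouse left out, and that of Ifitm3 was between -0.51 and 0.16. Fold changes of the 9 genes were recomputed 131 times over 15 alternatives, and 8 had the opposite sign. The cause of these changes was not tested.

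By the labels, same-numbered mice share only a number, and whether they were paired is not stated. The deviations of their genes from the group means correlated at 0.31, -0.07 and 0.24 and the labels tie the numbers to nothing shared. With the replicate block 126 genes were called in all, 0 of the 9 genes and 3 of the other interferon-stimulated genes. An unadjusted p below 0.05 was found for 323 genes with the block, beside 161 without it (edgeR). The smallest adjusted p over all genes was 0.00103 with the block and 0.999 without it (edgeR, Benjamini-Hochberg). Oasl2 had a log2 fold change of 0.51 and an unadjusted p of 0.0463 with the block (edgeR), short of the fold cutoff.

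Isg15, Usp18 and Irf7 rest on 4 to 31 counts per mouse and have the widest intervals of the 9 genes. Counts alone do not set the order, since Irf7 has more counts than Isg15 or Usp18 and a larger standard error. Ifi27l2a was not tested without MitoPark 1, because both group means were then below the filter.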

Other observations

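Some further genes of the lists had groups that did not overlap without passing the cutoffs. Only part of them are named, and they were named after their values were seen. Among tested genes of nucleic acid sensing, groups did not overlap for 3 of 30, all higher in MitoParks, beside 4.71% of all genes tested. Ube2l6, the enzyme that conjugates Isg15 to its targets, was at 7.31 CPM in controls and 9.52 CPM in MitoParks (log2 fold change 0.38, standard error 0.19, unadjusted p = 0.0708, edgeR). Tap1, which carries peptides to class I molecules, had a log2 fold change of 0.51 (unadjusted p = 0.0826, edgeR), and Gbp6, an interferon-induced GTPase, one of 0.53 (unadjusted p = 0.0411, edgeR), short of the fold cutoff. Tlr7, an endosomal sensor of single-stranded RNA, was at 3.12 CPM in controls and 4.48 CPM in MitoParks (log2 fold change 0.52, unadjusted p = 0.0733, edgeR). Parp9 and Znfx1 lay the other way, with all MitoParks below all controls and log2 fold changes of -0.25 and -0.20.

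Gbp4, another interferon-induced GTPase, was also highest in MitoPark 3. It gave 29, 11 and 31 counts in control mice 1 to 3, against 23, 35 and 92 in MitoParks 1 to 3 (unadjusted p = 0.0561, edgeR).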
